A study of Mus musculus with 16 samples.

Results

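The transcripts encoded by mitochondrial DNA were followed in cortical microglia that were sorted from young C57BL/6J mice given PLX3397 or control chow. They were taken by rule as every row of the gene-level table whose Ensembl identifier maps to a mouse symbol starting with mt-. This gave 37 genes of the 53850 in the table, 13 of them protein-coding, 2 for ribosomal RNA and 22 for transfer RNA. PLX3397 is an inhibitor of the CSF1 receptor, on whose signalling microglia depend for survival, and the series asks how males and females differ in the depletion it causes. The 16 libraries formed 4 groups of 4: males after 1 week on PLX3397, males on control chow, females after 1 week on PLX3397 and females on control chow. All groups shared the strain, the cortex as source and fluorescence-activated sorting. The age in weeks, the gate of the sort and the dose in the chow are not given in the sources used here. Nothing in the labels ties each sample to an animal of its own, so p-values measure the spread between these samples, which may be technical.

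Mitochondrial DNA is a small circular genome kept in many copies inside the organelle. It is read from promoters on both strands into long precursor RNAs, and transfer RNAs that lie between the longer genes mark the places where these precursors are cut. The protein-coding genes encode core subunits of respiratory complexes I, III and IV and of ATP synthase, and the ribosomal and transfer RNAs serve their translation inside the organelle. Every other mitochondrial protein, including the enzymes that copy, transcribe and process this genome, is encoded in the nucleus.

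Values are the deposited normalised read counts, whose column totals ran from 32641505 to 39584145 in males on PLX3397, against 39478735 to 41596631 in male controls. They ran from 41574208 to 42268064 in females on PLX3397, against 38410670 to 44162201 in female controls. The usual step between low values put the depth at an estimated 21900000 to 78800000 reads per library. The sorted cells carried the defining microglial transcripts P2ry12, Tmem119 and Csf1r in every library, with Tmem119 at 40651 to 85302 in males on PLX3397 against 259561 to 275667 in male controls. The lowest Csf1r value of any library was 293096. Among the male libraries, 2 stood apart. Male control replicate 4 had an Xist value of 515.7 where the other male controls had at most 31.4, and male PLX3397 replicate 3 had an S100a8 value of 14419 where the other males on PLX3397 had at most 3184. Each count of called mitochondrial genes below that changed without both libraries is also given without them. Counts of non-overlapping groups, of nuclear genes and of markers were not redone without them.

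Males on PLX3397 had about double the mitochondrial share of male controls in their libraries, and females on PLX3397 had a smaller excess over female controls. The 37 genes together took 0.591, 0.599, 0.676 and 0.635% of the column total in males on PLX3397, against 0.325, 0.300, 0.297 and 0.325% in male controls. No male library on PLX3397 came near the control range, and the ratio of the group means was 2.00 (0.625% ± 0.0387 against 0.312% ± 0.0153, SD, n = 4 each). In females the share was 0.455, 0.367, 0.403 and 0.355% on PLX3397, against 0.284, 0.273, 0.317 and 0.353% on control chow. The lowest library on PLX3397 stood only just above the highest control, and the ratio of the means was 1.29 (0.395% ± 0.0449 against 0.307% ± 0.0361, SD, n = 4 each). Females on control chow and males on control chow had a ratio of 0.984. The male share also reflects the column totals, which on PLX3397 stood at 0.898 of those on control chow. Not divided by the totals, the summed counts of the 37 genes had ratios of 1.80 in males and 1.29 in females. As a sum over chosen genes, the share is given with no test. In bulk libraries a change in the number of contributing cells and a change in RNA per cell cannot be told apart.

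All 3 classes took larger shares in males on PLX3397 than in male controls. Protein-coding genes held 87.9% to 90.8% of the mitochondrial counts over all 16 libraries, ribosomal RNAs 7.57% to 10.6% and transfer RNAs 1.15% to 1.75%. These are parts of the counts, and how well the protocol captured each class was not measured. In males on PLX3397 the protein-coding share of the column total was 0.555% ± 0.0380, against 0.281% ± 0.0133 in male controls (SD, n = 4 each). The ribosomal RNA share was 0.0598% ± 0.00538 in males on PLX3397 and 0.0261% ± 0.00251 in male controls, a ratio of 2.30. The transfer RNA share of the 2 groups stood at a ratio of 2.05. The gene mt-Ts1 alone held 84.0% to 94.0% of the transfer RNA counts over all 16 libraries, so this share mostly followed it. Its overlap with mt-Co1 and the lack of strand in the libraries are described below. In females on PLX3397 the same 3 ratios over female controls were 1.28, 1.37 and 1.18.

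**Figure D1:**
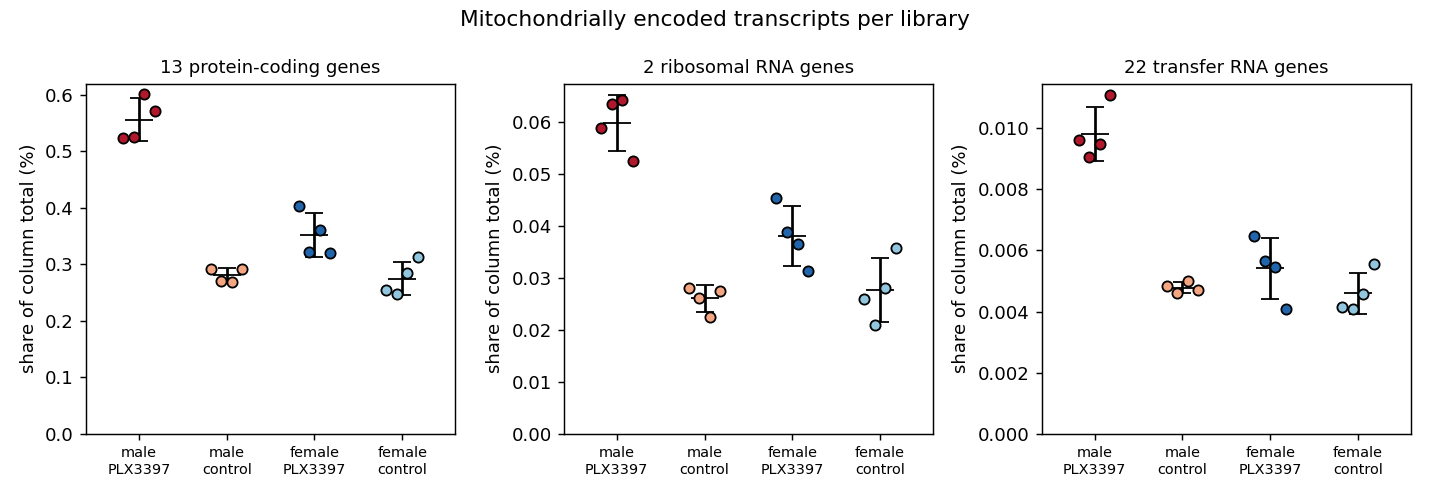
Share of the column total taken by the 13 protein-coding, 2 ribosomal RNA and 22 transfer RNA genes of the mitochondrial genome, in percent; each point is 1 library, the bar is the mean and the whiskers are the SD (n = 4). Males on PLX3397 lie above every male control in all 3 panels, with protein-coding means of 0.555% against 0.281%, while the female groups lie closer together, at 0.351% and 0.274%. The transfer RNA panel mostly shows mt-Ts1.

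All 13 protein-coding and both ribosomal RNA genes passed the filter on low values, which asked for 10 or more in 4 or more libraries, and 7 of the 22 transfer RNA genes did. A gene could pass through 1 group alone, since a group has 4 libraries. Per kilobase of gene length, mt-Co3, a subunit of cytochrome c oxidase, stood highest at 37702 ± 9871 normalised reads (SD, n = 16). It was followed by the transfer RNA gene mt-Ts1 at 31697 ± 10740.0 and by mt-Atp8 at 23695 ± 7184. The place of mt-Ts1 is uncertain. It is only 69 bases long, and its reads cannot be told from RNA of the opposite strand, as described below. At the low end of the protein-coding genes were mt-Nd2 (4372 ± 1235), mt-Nd6 (4293 ± 1124), mt-Nd4l (4073 ± 1465) and mt-Nd5 (3777 ± 1001), all subunits of complex I. Neighbours at the low end were not separated: mt-Nd4l exceeded mt-Nd5 in 9 of the 16 libraries and mt-Nd2 exceeded mt-Nd6 in 10. mt-Atp6 exceeded mt-Co1 in 10 of them too. The places of both are uncertain, since reads put on nuclear copies, described below, are not included. Such copies held 29.8% to 61.0% of the sum of gene and copies for mt-Atp6, and 19.6% to 30.0% for mt-Co1. The step from mt-Nd1 (13863 ± 3412) to the larger ribosomal RNA mt-Rnr2 (8938 ± 2877) held in all 16 libraries, as did that from mt-Nd4 (7234 ± 2286) to mt-Nd3 (4525 ± 928.3). The smaller ribosomal RNA mt-Rnr1 was at 874.6 ± 367.4 per kilobase, below every protein-coding gene in mean level of these reads. How well the library protocol captured each class of RNA was not measured. The levels therefore do not rank ribosomal, transfer and messenger RNAs by amount in the cells.

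**Figure D2:**
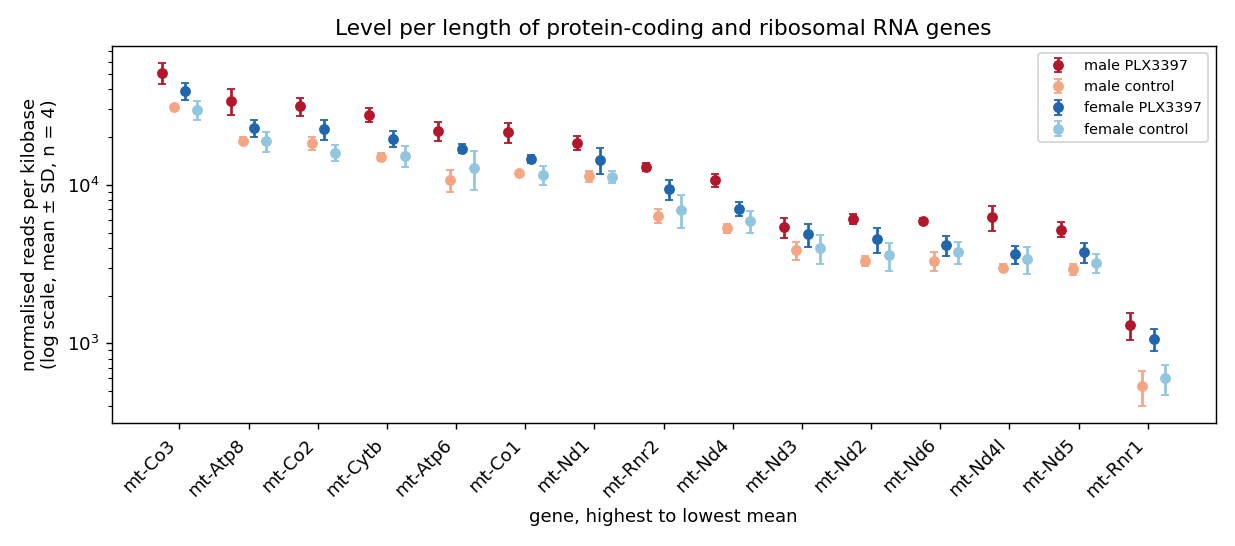
Normalised read counts per kilobase of gene length on a log scale for the protein-coding and ribosomal RNA genes, ordered by mean over the 16 libraries; points are group means and whiskers SD (n = 4). The order runs from mt-Co3 to mt-Rnr1, and males on PLX3397 stand highest at each of the 15 genes. Values of nuclear copies are not included.

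In males, 12 of the 13 protein-coding genes and both ribosomal RNAs rose on PLX3397. Over all 22 mitochondrial genes tested, 17 rose, 0 fell and 5 did not pass (limma on log2(value + 1), Benjamini-Hochberg adjusted p under 0.05 over 19594 genes). Of all genes tested, 4.16% were called higher in this comparison, and 5.72% of those with a mean value of at least 500. The median log2 change of the 22 was 0.86, against 0.02 over all genes tested. Every male library on PLX3397 lay above every male control for 19 of the 22, where 7.71% of all genes did so. The folds below are ratios of group means, and the changes are log2 differences ± SE.

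Cytochrome c oxidase, the last complex of the chain, has 3 mitochondrially encoded subunits. The catalytic subunit gene mt-Co1 had 34149.7, 26133, 34455 and 37609 normalised counts in males on PLX3397, against 18877, 18277, 17612 and 18598 in male controls. The groups were well apart, and mt-Co1 was 1.80-fold higher (log2 change 0.84 ± 0.106, limma adjusted p = 5.62e-05). mt-Co3, another core subunit, had 42443, 31149.7, 42939 and 43730.4 in males on PLX3397, against 25103, 24006, 23733 and 24115 in male controls. Replicate 2 on PLX3397 was the lowest of its group and still above every control, and the change was 0.71 ± 0.119 (limma adjusted p = 0.000712). mt-Co2, the subunit that receives electrons from cytochrome c, stood at 18984 to 25028 in males on PLX3397, against 11064 to 13940.2 in male controls, and rose by 0.77 ± 0.119 (limma adjusted p = 0.000364).

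mt-Cytb, the only mitochondrially encoded subunit of complex III, had 33555, 26819, 33079.5 and 33651 normalised counts in males on PLX3397, against 18098, 16570.3, 16224 and 18148 in male controls. It rose by 0.88 ± 0.114 (limma adjusted p = 7.42e-05), again without overlap. The ATP synthase genes mt-Atp8 and mt-Atp6 share 43 bases and are read from 1 transcript. mt-Atp8 stood at 4989 to 7838 in males on PLX3397, against 3710.0 to 4088 in male controls, with a change of 0.81 ± 0.145 (limma adjusted p = 0.00118). For mt-Atp6 the values were 13141, 14421, 14141 and 17798 in males on PLX3397, against 8371, 8168, 6222 and 6367 in male controls, and the change was 1.03 ± 0.163 (limma adjusted p = 0.00044). All 4 values on PLX3397 exceeded the controls, but mt-Atp6 has a nuclear copy of identical sequence that is described below.

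Complex I, where electrons enter the chain from NADH, has 7 mitochondrially encoded subunits. mt-Nd4, a subunit of the membrane arm, had 14512, 13313, 14494 and 16719 normalised counts in males on PLX3397, against 7506, 7181, 6668 and 7871 in male controls. It had the smallest adjusted p of the 22 genes (1.82e-05 by limma), with a change of 1.01 ± 0.113. mt-Nd4l, which overlaps mt-Nd4 by 7 bases in the same transcript, had 2049, 1398, 1835 and 2154 in males on PLX3397, against 876, 836, 922 and 932 in male controls. Its change, 1.04 ± 0.161, was the largest of the protein-coding genes (limma adjusted p = 0.000368). mt-Nd1, mt-Nd2, mt-Nd5 and mt-Nd6 rose by 0.70 ± 0.120, 0.87 ± 0.145, 0.83 ± 0.121 and 0.85 ± 0.138, with limma adjusted p-values from 0.00022 to 0.000854. mt-Nd6 is the only protein-coding gene annotated on the opposite strand, and it shares 14 bases with mt-Nd5. The ratio of mt-Nd6 to mt-Nd5 was 0.326 ± 0.0231 in males on PLX3397 and 0.321 ± 0.0304 in male controls (SD, n = 4 each).

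mt-Nd3, a further complex I gene, was the exception. It had 1869, 1528, 1937 and 2163 normalised counts in males on PLX3397, against 1604, 1274, 1283 and 1214 in male controls. The lowest value on PLX3397 lay below the highest control, and the change of 0.48 ± 0.169 did not pass (limma adjusted p = 0.0833). It passed when every library was scaled to an equal total (log2 change 0.64 ± 0.145, limma adjusted p = 0.00811). Within the protein-coding sum, mt-Nd3 took 0.921% ± 0.0276 in males on PLX3397 and 1.17% ± 0.110 in male controls (SD, n = 4 each), ranges that did not overlap. In females its part was 1.15% ± 0.0805 on PLX3397 and 1.20% ± 0.143 on control chow. mt-Nd4 took a larger part in males on PLX3397, at 7.28% ± 0.379 of the protein-coding sum on PLX3397 and 6.39% ± 0.325 on control chow, also without overlap. The parts of the other 11 genes overlapped between the male groups, and none of these parts was tested.

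**Figure D3:**
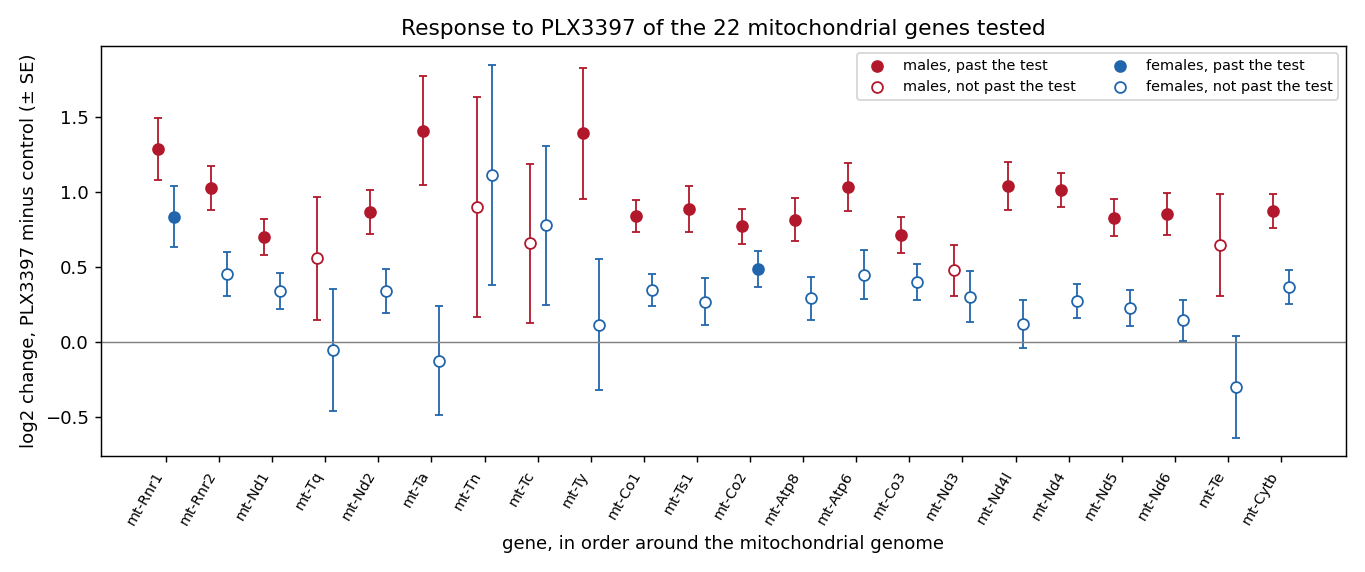
Log2 change on PLX3397 over control chow, with its SE, for the 22 mitochondrial genes tested, in order around the mitochondrial genome; red is males, blue is females, and filled points passed the test. In males 17 genes are filled, with mt-Nd3 among the open ones; in females mt-Rnr1 and mt-Co2 are filled.

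Both ribosomal RNAs rose in males. mt-Rnr1, the RNA of the small mitochondrial ribosomal subunit, had 1157, 1291, 1557 and 966 normalised counts in males on PLX3397, against 695, 483, 466 and 399.6 in male controls. The groups did not overlap and the change was 1.29 ± 0.206 (limma adjusted p = 0.000495). mt-Rnr2, the RNA of the large subunit, had 21782, 19447, 20999.9 and 19857 in males on PLX3397, against 10987, 10342, 8647 and 10425 in male controls. It rose 2.03-fold, by 1.03 ± 0.149 (limma adjusted p = 0.00021). The ratio of mt-Rnr2 to mt-Rnr1 varied widely between libraries, and lay between 13.5 and 26.1 over all 16. It was 14.7 ± 0.804 in females on PLX3397 and 19.2 ± 1.79 in female controls (SD, n = 4 each). The 2 female groups did not overlap in this ratio, and it was not tested.

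Of the 8 transfer RNA genes annotated on the strand of mt-Nd6, 7 passed the filter, and the other, mt-Tp, reached at most 6.40. Of the 14 on the strand of the other protein-coding genes, 0 passed, and their highest value in any library was 16.2. mt-Ts1, the transfer RNA for serine that reads UCN codons, held 90.7% of the transfer RNA sum in males on PLX3397 and 89.9% in male controls on average. It had 3376, 2678, 3009.6 and 4039 normalised counts in males on PLX3397, against 1820.3, 1660.4, 1901 and 1634 in male controls. It rose by 0.89 ± 0.155 (limma adjusted p = 0.00106), without overlap. mt-Ts1 shares 3 bases with the end of mt-Co1 on the opposite strand, and the ratio of mt-Ts1 to mt-Co1 was 0.0947 ± 0.00922 over the 16 libraries. The kits named in the labels' protocols do not mark strand, and without strand, reads from a gene and from RNA of the opposite strand cannot be told apart.

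Below are the sequences, from the GENCODE M21 transcripts of GRCm38, of mt-Ts1, of mt-Te as the next most abundant, and of mt-Ta and mt-Ty, the other transfer RNAs that passed the test. All are 5′ to 3′ and the capitals mark the anticodon.
mt-Ts1: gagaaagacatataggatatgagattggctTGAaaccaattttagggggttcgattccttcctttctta
mt-Te: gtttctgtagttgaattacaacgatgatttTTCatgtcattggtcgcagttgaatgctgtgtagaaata
mt-Ta: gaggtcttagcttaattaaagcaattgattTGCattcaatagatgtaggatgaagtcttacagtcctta
mt-Ty: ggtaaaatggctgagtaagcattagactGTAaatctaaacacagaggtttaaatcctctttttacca

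mt-Ta, the transfer RNA for alanine, had 58.1, 29.4, 38.01 and 54.4 normalised counts in males on PLX3397, against 12.0, 20.9, 16.7 and 14.5 in male controls. The change was 1.41 ± 0.364 (limma adjusted p = 0.0173), and it no longer passed without male PLX3397 replicate 1 (limma adjusted p = 0.0555), without male control replicate 1, or without both libraries that stood apart. mt-Ty, for tyrosine, had 33.0, 15.9, 17.7 and 24.8 in males on PLX3397, against 5.02, 5.44, 11.4 and 11.1 in male controls. The groups did not overlap, but its call (change 1.39 ± 0.436, limma adjusted p = 0.0486) was lost whichever of the 16 libraries was left out. mt-Te, for glutamate, had 128, 133, 120.1 and 121 in males on PLX3397, against 99.4, 89.4, 41.4 and 109 in male controls. These did not overlap, but its change of 0.65 ± 0.340 did not pass (limma adjusted p = 0.267). mt-Tq, mt-Tn and mt-Tc, at 8.36 to 57.7 in males on PLX3397 and 6.74 to 46.6 in male controls, did not pass either.

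In females on PLX3397, 2 of the 22 genes rose, 0 fell and 20 did not pass. Of all genes tested, 2.67% were called higher in this comparison. The 13 protein-coding genes had a median log2 change of 0.34, with values from 0.12 to 0.49, against -0.0032 over all genes tested. mt-Co2 had 17953, 14292, 15957 and 12994 normalised counts in females on PLX3397, against 11173, 9551, 12448 and 10367 in female controls. Every value on PLX3397 lay above the controls, and the change was 0.49 ± 0.119 (limma adjusted p = 0.0217). mt-Rnr1 had 1249, 973, 958 and 878 in females on PLX3397, against 503, 432, 659 and 699 in female controls. Here too the groups were apart, with a change of 0.84 ± 0.206 (limma adjusted p = 0.0231). mt-Co3 and mt-Cytb also did not overlap between the female groups, so that 4 of the 22 lay wholly higher, where 5.13% of all genes did.

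mt-Co3 had 34637, 28009, 33153 and 26799.7 normalised counts in females on PLX3397, against 23332, 19029, 24280.0 and 26480.5 in female controls, and its change of 0.40 ± 0.119 did not pass (limma adjusted p = 0.0644). mt-Co1 had 24079, 21019, 22739 and 22559.6 in females on PLX3397, against 16958, 15495, 17916 and 21084 in female controls. Here 1 value of each group fell inside the other group's range, and the change was 0.35 ± 0.106 (limma adjusted p = 0.0702). The changes of mt-Nd4 and mt-Nd4l, the genes that led the male response, were 0.27 ± 0.113 (limma adjusted p = 0.219) and 0.12 ± 0.161 (limma adjusted p = 0.794). mt-Ts1 changed by 0.27 ± 0.155 (limma adjusted p = 0.421), and mt-Te, mt-Ta and mt-Tq had changes below 0, none of which passed. As parts of the protein-coding sum, mt-Nd4l took 0.735% ± 0.0346 in females on PLX3397 and 0.872% ± 0.0784 in female controls (SD, n = 4 each), and mt-Nd6 took 1.46% ± 0.0586 in females on PLX3397 and 1.70% ± 0.0972 in female controls. For mt-Nd5 the part was 4.63% ± 0.235 in females on PLX3397 and 5.10% ± 0.238 in female controls. The ranges of mt-Nd4l, mt-Nd6 and mt-Nd5 did not overlap between the female groups, and those of the other protein-coding genes did. The parts were not tested. The number of calls in females depended on single libraries. It was 0 without female PLX3397 replicate 1 or female control replicate 2. It was 1 without female PLX3397 replicate 2 or 3 or female control replicate 1, 4 without male PLX3397 replicate 2, and 5 without female control replicate 4. With equal library totals it was 5, with mt-Co1, mt-Co3 and mt-Cytb added, where 2.95% of all genes were called higher, and with quantile normalisation 7.

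The difference between the responses, females minus males, did not pass for any mitochondrial gene, and of all 19594 genes 0 passed by limma after adjustment. At an unadjusted p under 0.05, 13 of the 22 had a smaller response in females and 0 a larger one, where 3.81% of all genes tested had a smaller one. The 13 protein-coding genes had a median difference of -0.52, and the estimate was below 0 for 20 of the 22. The smallest adjusted p belonged to mt-Nd4, whose difference was -0.74 ± 0.160 (limma adjusted p = 0.185, unadjusted p = 0.000279). That of mt-Nd4l was -0.92 ± 0.228 (limma adjusted p = 0.208) and that of mt-Nd6 -0.71 ± 0.195 (limma adjusted p = 0.23). That of mt-Nd3 was -0.18 ± 0.239 (limma adjusted p = 0.849).

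On PLX3397 the 2 sexes were also set side by side. Females had lower values than males for 9 of the 22 genes, and 13 did not pass, where 1.15% of all genes tested were called lower. Every female library on PLX3397 lay below every male library on PLX3397 for 12 of the 22, where 5.36% of all genes did. The 9 were mt-Co1, mt-Co2, mt-Cytb, mt-Atp8, mt-Nd4, mt-Nd4l, mt-Nd5, mt-Nd6 and mt-Ts1. mt-Nd4 had 10951, 9054, 9967 and 8880.3 normalised counts in females on PLX3397, against 14512, 13313, 14494 and 16719 in males on PLX3397, a change of -0.60 ± 0.113 (limma adjusted p = 0.00853). mt-Nd4l had 1279.9, 962, 1063 and 1026 in females on PLX3397, against 2049, 1398, 1835 and 2154 in males on PLX3397. The highest female value was below the lowest male value, and the change was -0.77 ± 0.161 (limma adjusted p = 0.0147). mt-Co1, with a change of -0.54 ± 0.106, was also lower in females (limma adjusted p = 0.0106).

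The count of these calls changed when single libraries were left out. It was 3 without female PLX3397 replicate 4, 4 without female PLX3397 replicate 2 or male PLX3397 replicate 3, and 5 without female PLX3397 replicate 3 or male PLX3397 replicate 4. With both libraries that stood apart left out (male PLX3397 replicate 3, male control replicate 4) it was 2, mt-Co1 and mt-Nd4, and it was 0 when the 2 groups were fitted alone. With equal library totals 14 were lower, where 1.91% of all genes were, and that scaling moved the median of all genes by -0.20 in this comparison and by 0.16 between the male groups. Over all genes tested in males, 815 higher and 1474 lower calls became 1348 and 917 with equal library totals, and 1040 and 1188 with quantile normalisation. Between females and males on PLX3397, 838 higher and 226 lower calls became 196 and 375 with equal library totals, 436 and 236 with upper-quartile scaling, and 246 and 221 with quantile normalisation. On control chow, 0 of the 22 differed between females and males by limma after adjustment, and 0 had an unadjusted p under 0.05, where 0.0663% of all genes were called in either direction. There mt-Co1 had 16958, 15495, 17916 and 21084 in female controls, against 18877, 18277, 17612 and 18598 in male controls (-0.05 ± 0.106, limma adjusted p = 0.995), with the male values inside the female range.

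Copies of mitochondrial DNA in the nuclear genome hold the same letters as some of these genes, and the table gives separate values to both. Of the 10 annotated copies examined, 9 matched a protein-coding mitochondrial gene over their whole length without a gap, at 96.67% to 100% identity, and Gm13341 matched with 1 gap. Gm10925 on chromosome 1 is identical to mt-Atp6 over all of its 678 bases. Gm29216, also on chromosome 1, matches the last 492 bases of mt-Co1 and differs at 6 of them. These are T1056A, C1057T, A1059G, A1060G, C1062A and A1066T, with the base of mt-Co1 first, counted from 1 at its 5′ end. The remaining 479 bases in a row are identical. The first 60 bases of mt-Atp6 and Gm10925, and bases 1054 to 1093 of mt-Co1 with the first 40 of Gm29216, from the GENCODE M21 transcripts of GRCm38, are shown because they hold the differences between the pairs, which are 0 in the first. Capitals mark the shared start codon in the first pair and the bases that differ in the second.
mt-Atp6: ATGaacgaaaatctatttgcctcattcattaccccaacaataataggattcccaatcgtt
Gm10925: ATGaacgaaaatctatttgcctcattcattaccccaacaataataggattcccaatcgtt
mt-Co1: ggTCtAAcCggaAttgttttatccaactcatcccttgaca
Gm29216: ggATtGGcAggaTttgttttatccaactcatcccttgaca

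Gm10925 held a large part of the reads of this sequence. It had 18691, 11997, 16641 and 18437 normalised counts in males on PLX3397, against 8325, 7225, 8678 and 9951 in male controls. Every value on PLX3397 exceeded the controls, and it rose by 0.93 ± 0.173 (limma adjusted p = 0.00175). Its part of the sum of both was 45.4% to 58.7% in males on PLX3397, 46.9% to 61.0% in male controls, 38.2% to 48.1% in females on PLX3397 and 29.8% to 53.8% in female controls. Gm29216 had 11366, 11207, 10888 and 13813 in males on PLX3397, against 5943, 5719, 6397 and 5649 in male controls. It rose by 0.99 ± 0.133 without overlap (limma adjusted p = 0.000101). Reads that fit both places cannot be assigned to one of them from these values.

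With the copies added to their mitochondrial genes, mt-Atp6 rose by 0.98 ± 0.101 in males (limma adjusted p = 8.33e-06) and mt-Co1 by 0.88 ± 0.0991 (limma adjusted p = 1.95e-05). In females both then passed as well, mt-Atp6 with 0.41 ± 0.101 (limma adjusted p = 0.0220) and mt-Co1 with 0.36 ± 0.0991 (limma adjusted p = 0.0470). Without its copy, mt-Atp6 had changed by 0.45 ± 0.163 in females (limma adjusted p = 0.148). The calls in females then numbered 4. Of the other copies, Gm28437, identical to mt-Co3 over its 783 bases, was above 0 in 5 libraries and reached 1833 in male PLX3397 replicate 4. Gm28438, Gm28439, Gm28661 and Gm10222 were listed at 0 in all 16 libraries. The 3 copies on chromosome 2, Gm13339, Gm13340 and Gm13341, reached at most 10.7.

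**Figure D4:**
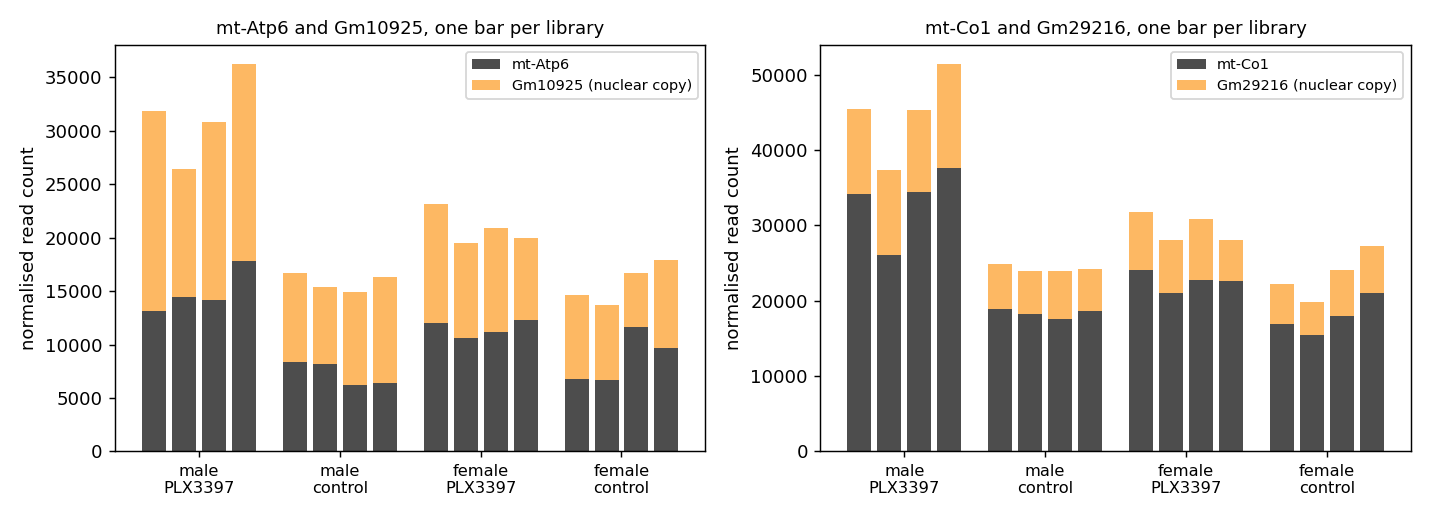
Normalised read counts of mt-Atp6 with its nuclear copy Gm10925 (left) and of mt-Co1 with its nuclear copy Gm29216 (right), stacked, with 1 bar for each library. The sum is highest in males on PLX3397 in both panels, and the copy makes up 29.8% to 61.0% of the mt-Atp6 bars.

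Few nuclear genes of the same respiratory complexes passed the test. Of 76 nuclear-encoded subunits of the respiratory chain and ATP synthase, 1 rose, 1 fell and 74 did not pass in males, where 4.16% of all genes were called higher and 7.52% lower. Their median log2 change was 0.0046, against 0.84 for the 13 mitochondrially encoded genes. The gene that rose was Cox4i1, a subunit of cytochrome c oxidase, at 8510.4 ± 1617 normalised counts in males on PLX3397 and 6126 ± 251 in male controls (SD, n = 4 each; change 0.46 ± 0.120, limma adjusted p = 0.0189). The one that fell was the complex I gene Ndufa9, at 3458 ± 473 in males on PLX3397 and 4541 ± 341 in male controls (SD, n = 4 each; -0.40 ± 0.125, limma adjusted p = 0.0473). In females 3 rose, 0 fell and 73 did not pass, with a median of 0.15, where 2.67% of all genes were called higher. These were Cox4i1 (0.50 ± 0.120, limma adjusted p = 0.0197) and the complex I genes Ndufb9 (0.38 ± 0.0995, limma adjusted p = 0.0318) and Ndufb10 (0.46 ± 0.126, limma adjusted p = 0.044). The share of the column total held by the 76 genes on PLX3397 was 1.11 times that on control chow in males, and 1.11 times in females. In males their summed counts were nearly equal, at 212727 ± 25524 on PLX3397 and 212270 ± 3560 on control chow (SD, n = 4 each). The male ratio thus reflects the column totals, which stood at 0.898 of those on control chow. In females the totals stood at 1.00, and the sums were 242403 ± 13818 on PLX3397 and 218673 ± 21132 on control chow. The ranges of these sums overlapped in both sexes, and the sums were not tested.

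The counts for genes that transcribe, copy and process mitochondrial DNA in males are to be read against the 4.16% of all genes called higher and 7.52% called lower, to which their shares are near. Of 11 transcription genes, 0 rose, 1 fell and 10 did not pass in males, and 11 did not pass in females. Tfam, which packs mitochondrial DNA and starts its transcription, had 789 ± 165 normalised counts in males on PLX3397 and 844 ± 177 in male controls (SD, n = 4 each; -0.10 ± 0.177, limma adjusted p = 0.796). Polrmt, the mitochondrial RNA polymerase gene, changed by 0.03 ± 0.140 (limma adjusted p = 0.939). The gene that fell was Mterf3, which in mice is known to repress mitochondrial transcription, with a change of -0.48 ± 0.144 (limma adjusted p = 0.0406). Of 11 replication and nucleotide supply genes, Tk2, the mitochondrial thymidine kinase, fell in males (-0.41 ± 0.122, limma adjusted p = 0.0387), and 10 did not pass. In females 11 did not pass. Of 26 RNA processing genes, 1 rose and 25 did not pass in males, and 26 did not pass in females. The one that rose was Tbrg4 of the FASTK family of RNA-binding proteins, at 0.56 ± 0.161 (limma adjusted p = 0.0335). Lrpprc and Slirp, whose proteins form a complex that stabilises mitochondrial messenger RNAs, changed by -0.05 ± 0.116 and -0.14 ± 0.175 in males (limma adjusted p = 0.832 and 0.68).

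The counts below for PLX3397 over control chow are to be read against the shares of all genes. In males 4.16% were called higher and 7.52% lower, and in females 2.67% higher and 2.67% lower. Of 8 regulators of mitochondrial biogenesis, 7 were tested, and the coactivator gene Ppargc1a was not among them. In males Gabpb1, a subunit of nuclear respiratory factor 2, fell to 1165 ± 69.0 on PLX3397, against 1936 ± 102 on control chow (SD, n = 4 each; -0.73 ± 0.106, limma adjusted p = 0.000208), and 6 did not pass. On PLX3397 Gabpb1 was higher in females than in males (0.66 ± 0.106, limma adjusted p = 0.00497). In females the coactivator gene Ppargc1b rose to 405 ± 98.5 on PLX3397, against 132 ± 103 on control chow (SD, n = 4 each; 2.16 ± 0.566, limma adjusted p = 0.0329), and 6 did not pass. Of 21 genes for import, membrane and matrix proteins, 2 fell and 19 did not pass in males, with a median of -0.19. That number of falls is near the 7.52% of all genes called lower. These were Vdac2, an outer membrane channel (-0.56 ± 0.130, limma adjusted p = 0.00882), and Timm23, the inner membrane import channel (-0.31 ± 0.0918, limma adjusted p = 0.039). In females the import receptor gene Tomm20 rose (0.56 ± 0.128, limma adjusted p = 0.0147) and 20 did not pass. On PLX3397, 7 of these 21 were higher in females than in males, where 4.28% of all genes were called higher. Among them were Tomm40, the outer membrane import pore (0.65 ± 0.109, limma adjusted p = 0.00556), and Immt, which shapes the cristae (0.52 ± 0.114, limma adjusted p = 0.017). The mitochondrially encoded genes called in that comparison were lower in females. Higher calls over all genes in it fell from 838 to 196 with equal library totals. The calls of the nuclear lists and of the cell type markers were not redone with that scaling.

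**Figure D5:**
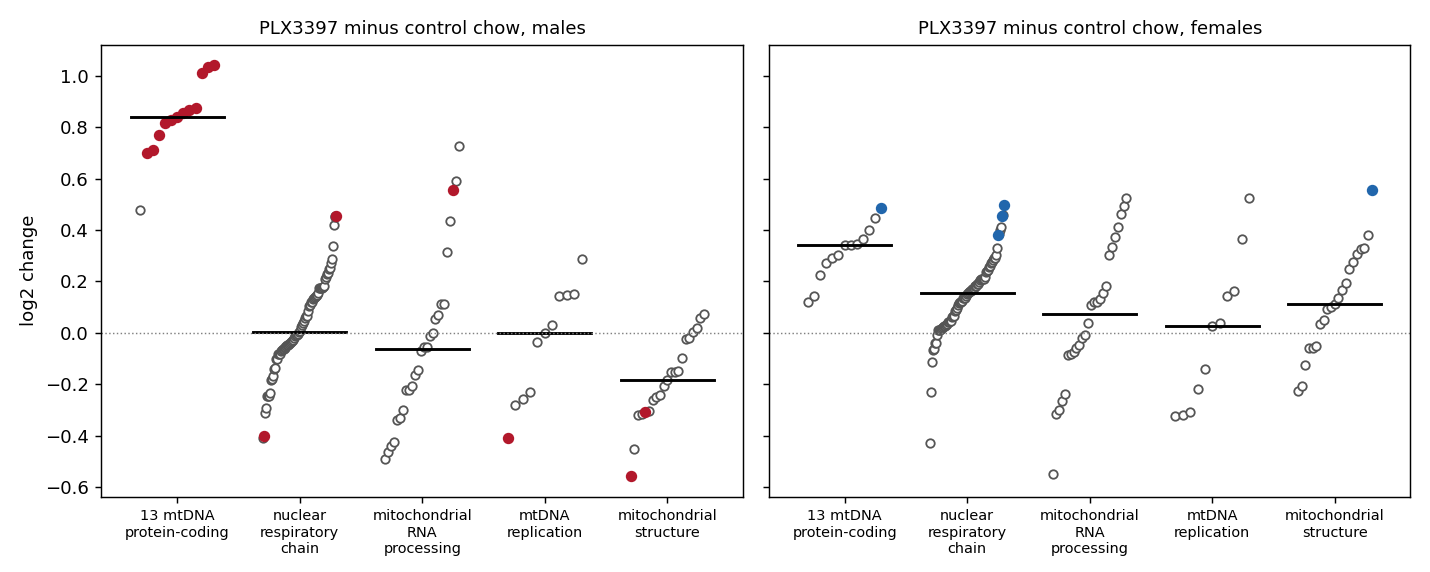
Log2 change on PLX3397 over control chow for the 13 mitochondrially encoded protein-coding genes and 4 lists of nuclear genes, in males (left) and females (right); each point is 1 gene, filled points passed the test and the bar is the median. The medians in males are 0.84 for the mitochondrially encoded genes and 0.0046 for the nuclear-encoded respiratory chain genes, and in females 0.34 and 0.15.

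Markers of cell types moved with the same comparisons. For reference, 4.16% of all genes tested were called higher and 7.52% lower in males. In females 2.67% were called higher and 2.67% lower. Of 8 microglial markers, 8 fell in males, and their summed value was 978287 to 1385850 in males on PLX3397, against 2143750 to 2317660 in male controls. In females 6 of 8 fell and 2 did not pass, and the sum was 1567400 to 1781420 on PLX3397, against 2034630 to 2488760 on control chow. Of 12 neutrophil markers, 9 rose in males and 6 in females, and the sum was 49623 to 115137 in males on PLX3397, against 36472 to 37620 in male controls. In females that sum was 24315 to 35626 on PLX3397, against 29161 to 34169.5 on control chow. Csf3r made up most of the mean sum in each group. Its mean was 39715 in males on PLX3397 and 34845 in male controls. In females its mean was 29788 on PLX3397 and 30884 on control chow. These sums therefore show little of the other neutrophil markers. Ly6g was at 0 in every male control, and 7 of the 12, S100a8, S100a9 and Ly6g among them, were at 0 in every female control. Retnlg passed the filter on low values only through males on PLX3397, where its mean was 163.3. Its means were 1.35 in male controls, 2.29 in females on PLX3397 and 0 in female controls. The call of such a marker is not independent of the filter. Between females and males on PLX3397, 9 of the 12 neutrophil markers were lower in females and 8 of the 8 microglial markers were higher. Over all genes tested, 1.15% were called lower in females and 4.28% higher there. Of 10 border macrophage markers, 6 fell and 4 did not pass in males, and 4 fell and 6 did not pass in females. Of 2 nuclear-retained RNAs, Neat1 rose in both sexes, by 1.51 ± 0.233 in males and 1.46 ± 0.233 in females (limma adjusted p = 0.000364 and 0.000961). The other, Malat1, did not pass in either, with changes of 1.15 ± 3.12 in males and -2.62 ± 3.12 in females (limma adjusted p = 0.875 and 0.758). The part of these cells, and of RNA quality, in the mitochondrial values was not tested. Without male PLX3397 replicate 3, the library highest in S100a8, the ratio of the mitochondrial share in males was 1.95, and without that library and male control replicate 4 it was 1.98. Without both, 15 of the 22 genes were called higher in males, namely the 12 protein-coding genes, the 2 ribosomal RNA genes and mt-Ts1.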

How the data were processed

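The authors deposited 1 table of normalised read counts, used here as a signal, for 53850 genes in 16 libraries. Per the labels' protocols, 500 pg of total RNA was amplified with a SMARTer kit and 150 pg of cDNA went into Nextera XT libraries. Tools in the submitters' processing notes, given without roles, include STAR 2.7.9a, featureCounts 2.0.1 of Subread and Salmon 1.5.2. The notes give GRCm39 as the build. The formula of the normalisation is not given in the sources used here. Whole reads were not recovered, so no count model was run and no counting interval is given.

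The test was limma 3.58.1 (R 4.3.3) on log2(value + 1), run on the 19594 genes that reached 10 in 4 or more libraries. The fit had a trend and 1 mean per group over 16 libraries, with two-sided tests and Benjamini-Hochberg adjustment over all genes. The median SE was 0.292 for 2 groups and 0.413 for the difference between responses. The fit was also run on simulated data with known changes and noise drawn independently for each gene, and no result here rests on that run. A fold change on this scale understates the change of low genes.

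Symbols, strands, gene lengths and transcript sequences came from GENCODE M21 (GRCm38), not the build of the table, so no coordinates are printed. Symbols were found for 51029 identifiers. Nuclear copies were aligned to the mitochondrial transcripts with Biopython 1.88. Figures were drawn with matplotlib 3.10.9. The members, gene lists and tests were chosen with earlier results of these data known. All 37 genes are accounted for, and other genes were named from the lists by call and smallest p.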

Additional observations from a re-analysis of the deposited data

Results flagged for a closer look

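Within 3 groups of 4 libraries, 1 value lay far from the others by Dixon's test. All 3 were male PLX3397 replicate 2. Its mt-Co3 value was 31149.7, against 42443 for the nearest of the other males on PLX3397. Its mt-Cytb value was 26819, against 33080 for the nearest. Its mt-Atp8 value was 4989, against 7428 for the nearest. The same library had the lowest column total of all 16, at 32641505, and its mitochondrial share of 0.599% was not the lowest of its group. Of 104 groups of values examined, 3 (2.88%) stood out in this way, where chance gives about 1 in 20.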

How the results depend on the processing

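In males the count of genes called higher stayed between 15 and 18 under every alternative run, which covered pseudocounts, filters, scalings, weights, the 2 groups fitted alone, the replicate block and the nuclear copies added. It was 15 to 16 with single libraries left out. Only mt-Ta and mt-Ty lost their calls in any of them, or went untested under a stricter filter, and mt-Nd3 gained one in 3. In females the count of 2 became 5 with equal library totals, 7 with quantile normalisation, 1 with the 2 groups fitted alone, 5 with the replicate block and 4 with nuclear copies added, an alternative chosen after seeing the data. It ranged from 0 to 5 with single libraries left out. Between females and males on PLX3397 the count of 9 became 5 with no filter on low values, 14 with equal library totals, 0 with the 2 groups fitted alone and 2 without both libraries that stood apart (male PLX3397 replicate 3, male control replicate 4). It ranged from 3 to 10 with single libraries left out. The cause was not tested for any of these shifts. The count stayed at 0 for the difference between the responses, for which the groups were not fitted alone, and for females against males on control chow. No direction of a called gene was reversed. The ratio of the mitochondrial share was 1.95 to 2.04 in males and 1.22 to 1.36 in females with single libraries left out. The replicate numbers in the labels did not pair the samples: over 16 pairs their deviations correlated at -0.0446 to 0.0206, and 2 libraries correlated best with their own number.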
